A study of Sus scrofa with 20 samples.

Results

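The genes described here are the ligands, receptors, coreceptors, modulators and intracellular relay of the Wnt pathway in pig biliary tree stem cells (pBTSCs) and sorted pig liver cells. They were chosen by name: every row of the expression table named as a numbered WNT, FZD, SFRP, RSPO or DKK gene, together with LGR4, LGR5, LGR6, LRP5, LRP6, AXIN1, AXIN2, RNF43, ZNRF3, WIF1, NOTUM, TCF7, TCF7L1, TCF7L2, LEF1 and CTNNB1. The rule found 53 of the 25764 genes of the table, namely 16 Wnt ligands, 12 receptors and coreceptors, 8 genes of the R-spondin axis, 10 secreted antagonists and 7 genes of the intracellular relay. LGR6 was not analysed here.

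Secreted Wnt proteins bind Frizzled receptors together with the coreceptors LRP5 and LRP6, which stops the breakdown of beta-catenin and lets it act in the nucleus with the TCF and LEF factors. R-spondins bind LGR receptors and keep Frizzled proteins at the cell surface by drawing off the ubiquitin ligases RNF43 and ZNRF3, while secreted antagonists such as the SFRP and DKK proteins hold the ligands or the coreceptors. In the liver, endothelial cells near the central vein are known sources of Wnt ligands and R-spondin, and hepatocytes beside that vein carry the beta-catenin programme.

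RNA was sequenced from 20 libraries in 6 groups. The 5 pBTSC libraries came from gallbladder by their labels, and from gallbladder and extrahepatic ducts of newborn piglets by the methods of the study. Libraries S2, S7 and S11 were from H2B-GFP piglets, in which a fusion of histone H2B with green fluorescent protein is inserted at the ACTB locus and is made in all cells, and S15 and S20 were from wild-type piglets. The 15 liver libraries held cells sorted by surface antigen, with 5 libraries for the CD45+ sort, 4 for CD45-/EpCAM+, and 2 each for CD45-/EpCAM-, CD31+ and CD146+. CD45 is the leukocyte antigen, EpCAM an epithelial antigen, CD31 an endothelial antigen and CD146 an antigen of endothelium and pericytes. The piglet that gave each liver library, its line and its age were not given in the sources used here.

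The values are normalized counts, with no correction for gene length, so levels were compared between libraries and not between genes. Estimated depth was 21300000 to 77800000 reads in 17 libraries, and 3 libraries were shallow: pBTSC S15 (1570000 reads), CD45-/EpCAM+ S13 (801000) and CD146+ S22 (455000), where 3 reads were worth 37.7, 77.1 and 157 normalized counts. The RNA of the liver sorts separated only in part by their own antigens. EPCAM was 1205 to 1779 normalized counts in CD45-/EpCAM+ libraries, 491 to 1090 in CD45-/EpCAM- libraries and 1175 to 2232 in CD45+ libraries. PTPRC, which encodes CD45, ranged from 424 to 2687 in CD45+ libraries and from 450 to 3027 in CD45-/EpCAM+ libraries. PECAM1, which encodes CD31, was 20102 to 25291 in CD31+, 20655 to 28778 in CD146+ and 12940 to 26681 in CD45+ libraries, and 28048 to 36576 in pBTSCs. MCAM, which encodes CD146, was 4615 to 5226 in CD146+ libraries and 2625 to 4611 in CD45+ libraries. The summed level of 10 hepatocyte markers was 1155545 to 3049501 in the liver libraries, also in the leukocyte and endothelial sorts, and 27304 to 80127 in pBTSCs.

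Markers of other cell types differed too. All 10 fibroblast and stroma markers were detected, with a summed level of 356108 to 1645445 in pBTSCs and 31570 to 157848 in liver, and 9 of the 10 were called higher. The sum of 6 smooth muscle markers was 93639 to 194151 against 14317 to 106230 (6 of 6 higher), and that of 4 Schwann cell markers 2498 to 11910 against 335 to 1794 (4 of 4 higher). The sum of 6 markers of liver sinusoidal endothelium was 4211 to 7564 in pBTSCs against 22622 to 119189 in liver (6 of 6 lower). The sum of the biliary epithelial markers, by which pBTSCs can be checked, was 21235 to 38444 against 5675 to 20933, with 2 of 8 called higher, among them the mucin MUC5B (186-fold), and 1 lower. The sum of 7 general endothelial markers was 80169 to 103543 against 21171 to 99492 (2 of 7 higher, VWF with a log2 fold change of 2.30 and PECAM1 with 1.07, and 0 lower), and that of 4 erythroid markers 29289 to 128512 against 1469 to 862043 (2 of 4 higher). The sum of 8 leukocyte and Kupffer cell markers was 4544 to 11859 against 26295 to 106077. No marker of these lists was at 0 in every library, and the part of these cell types in the differences below was not tested. In such bulk libraries fewer cells of a type and less RNA per cell cannot be told apart.

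Of the 53 members, 46 passed the filter on low values. The other 7 (WNT3A, WNT8A, WNT10A, WNT16, RSPO2, RSPO4 and DKK4) were not tested. WNT3A, the classic activating ligand, WNT8A and RSPO4 were at or under 3 reads in all 20 libraries. WNT16 was above 3 reads in 4 of 5 pBTSC libraries, at 2.49, 5.17, 5.74 and 6.23 normalized counts in S2, S7, S11 and S20, and in 0 of the 15 liver libraries. WNT10A was above 3 reads in 1 pBTSC library and in no liver library, RSPO2 in 4 pBTSC and 9 liver libraries and DKK4 in 2 and 4.

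**Figure D1:**
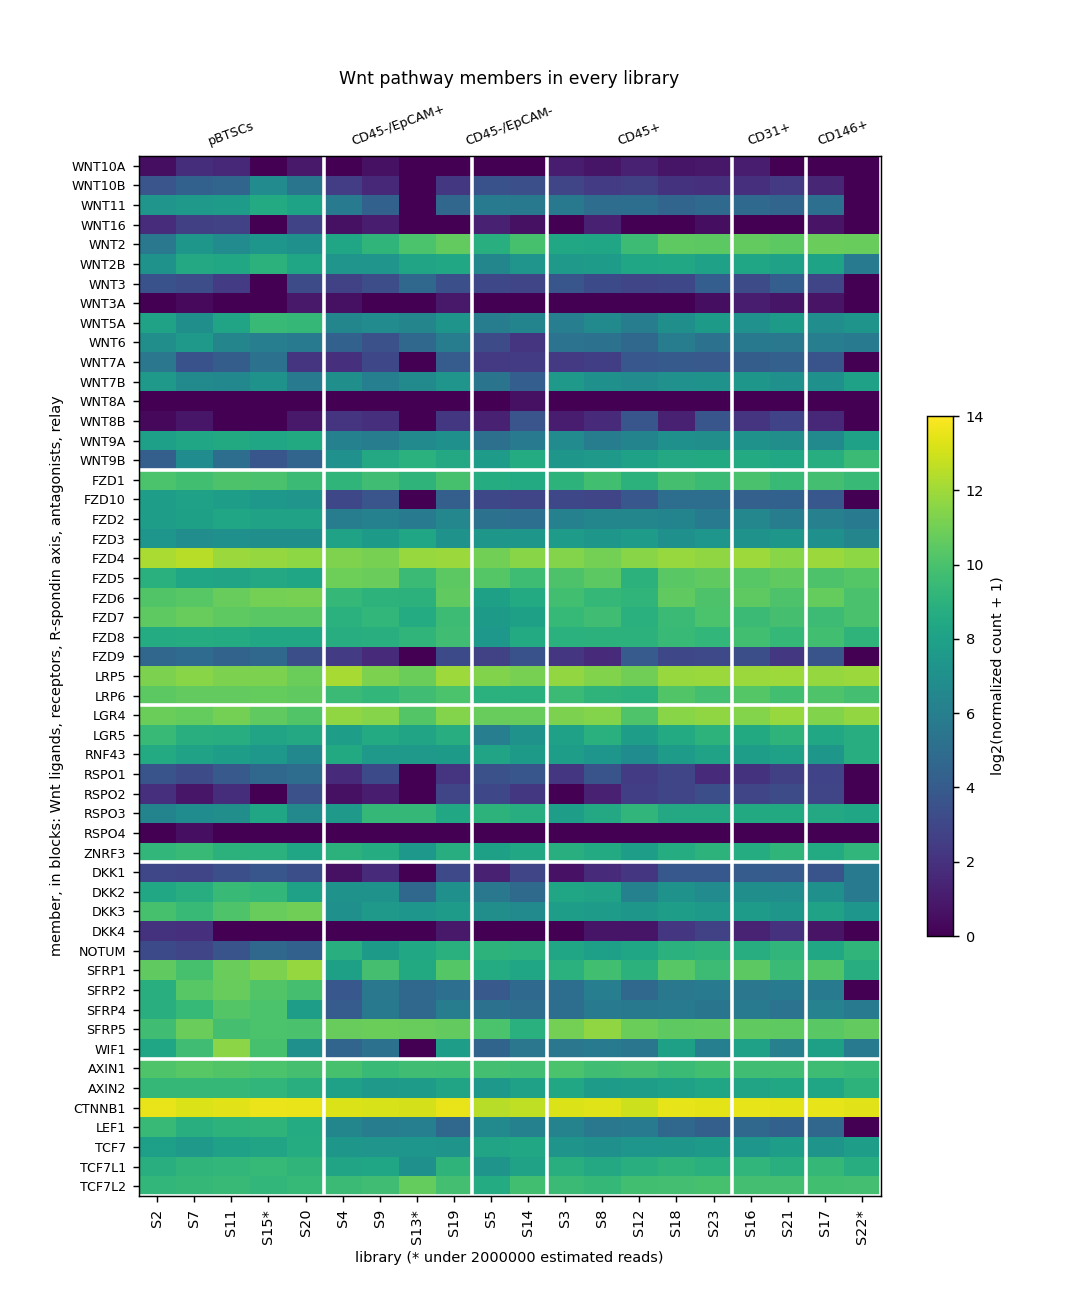
Level of the 53 members in each of the 20 libraries, as log2(normalized count + 1) by color, with libraries in columns by group and members in rows by role; an asterisk marks the 3 shallow libraries. NOTUM, WNT2 and WNT9B are dark in the pBTSC columns and bright in liver, and LEF1, FZD10, SFRP2 and SFRP4 the reverse, while CTNNB1 is bright in every column.

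The main comparison set the 5 pBTSC libraries against the mean of the 5 liver groups. limma with Benjamini-Hochberg adjustment called 25 of the 46 members (adjusted p under 0.05 and more than a 2-fold change), 19 higher and 6 lower in pBTSCs, where 26.6% of the 15576 genes tested were called, 16.1% higher and 10.5% lower. The median log2 fold change was 0.59 over the members and 0.11 over all genes, and the median absolute log2 fold change was 1.33 and 0.55. The groups did not overlap in 10 members that were higher in pBTSCs (11.9% of all genes) and in 4 that were lower (9.21%). By role, called higher and lower were 5 and 3 of 12 Wnt ligands, 5 and 1 of 12 receptors, 1 and 1 of 6 members of the R-spondin axis, 6 and 1 of 9 antagonists, and 2 and 0 of 7 relay genes. Without the 3 shallow libraries 24 of the 25 calls were still made and FZD6 was lost. A table of the study lists the 5 pBTSC libraries as different piglets, but nothing says whether the liver libraries of 1 sort are separate animals, so for those the p-values measure only the spread between these libraries.

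**Figure D2:**
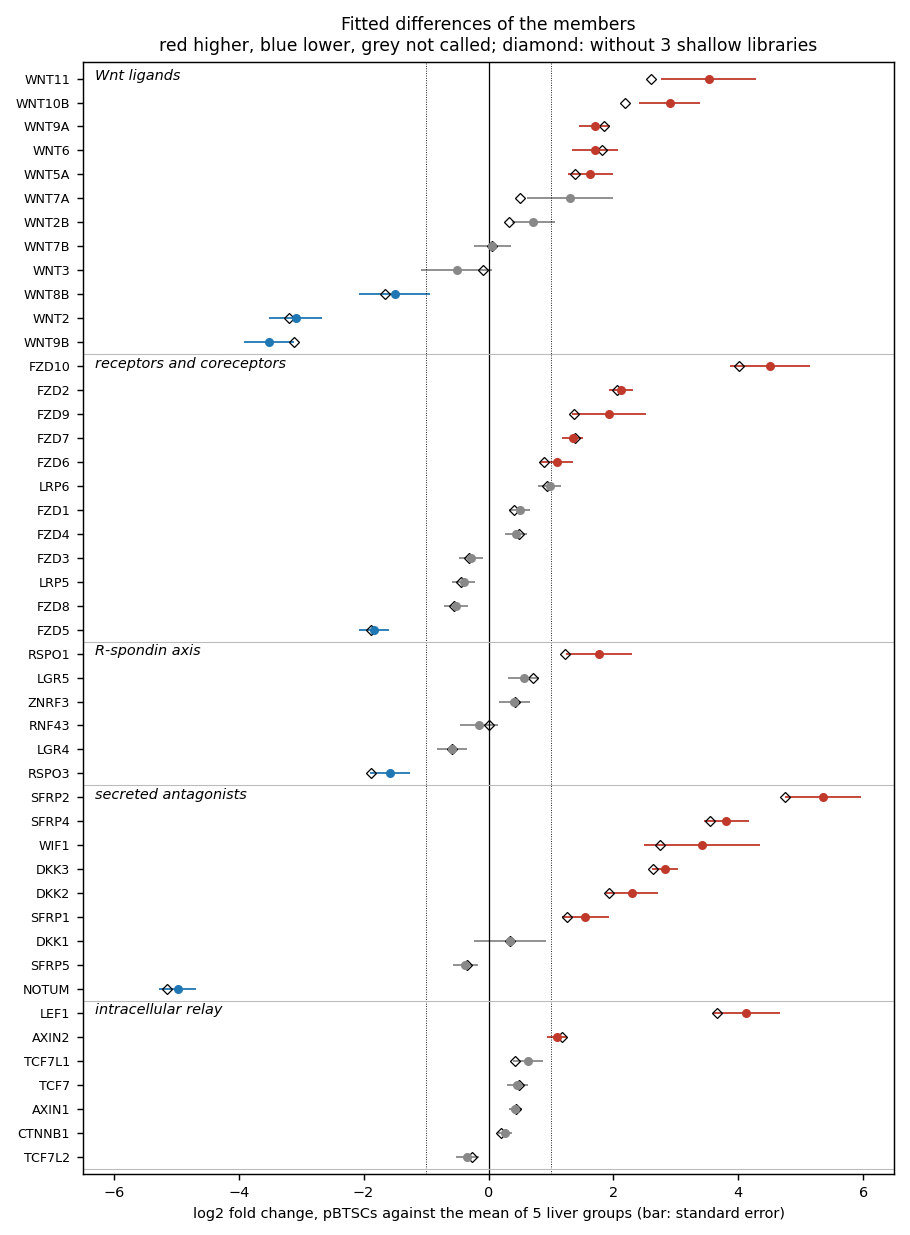
Fitted log2 fold change of the 46 tested members, pBTSCs against the mean of 5 liver groups, with standard errors, in blocks by role; red members were called higher, blue lower and grey not called, and diamonds show the fit without the 3 shallow libraries. The values run from -4.98 for NOTUM to 5.36 for SFRP2, and the diamonds of WNT11 and WNT10B lie nearer to 0 than their filled points.

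Among the ligands, those called lower in pBTSCs were WNT2, WNT9B and WNT8B. WNT2, which liver sinusoidal endothelium is known to make, measured 47.6, 167, 108, 164 and 131 normalized counts in pBTSC libraries S2, S7, S11, S15 and S20. In the 15 liver libraries it ran from 294 through a median of 1043 to 1771. The groups did not overlap, and WNT2 was 8.50-fold lower in pBTSCs (log2 fold change -3.09 ± 0.43 SE, adjusted p = 1.6e-05).

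WNT9B, also a ligand of liver endothelium, measured 18.2, 109, 32.4, 12.6 and 22.5 normalized counts in the same 5 pBTSC libraries. Its liver values had a lowest of 136, a median of 349 and a highest of 731. S7 stood well above the other pBTSC libraries but below every liver library, and the fitted difference was -3.52 ± 0.40 on the log2 scale (11.4-fold lower, adjusted p = 1.4e-06). WNT8B, at 0 to 0.960 in pBTSCs and 0 to 12.6 in liver, lay near the detection limit and its call (log2 fold change -1.50, adjusted p = 0.0371) was lost once the run of storage numbers was a term (adjusted p = 0.0553).

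The ligands called higher were WNT11, WNT10B, WNT9A, WNT6 and WNT5A. WNT11, a ligand mostly of the beta-catenin-independent branches, measured 157, 183, 210, 379 and 281 in pBTSCs and 0 to 52.1 (median 26.7) in liver, where both zeros came from shallow libraries. Every pBTSC library was above every liver library, with a log2 fold change of 3.53 ± 0.76 (adjusted p = 0.00106), and 2.60 without the 3 shallow libraries (adjusted p = 2.5e-06). Against CD45-/EpCAM+ liver cells alone its log2 fold change was 4.17, and 2.95 without shallow library S13.

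WNT10B, which signals through beta-catenin, measured 12.1, 19.4, 22.6, 108 and 42 in pBTSCs and 0 to 10.6 (median 3.84) in liver. The groups did not overlap but the pBTSC value of shallow library S15 was the highest by far, and the log2 fold change was 2.90 ± 0.49 with all libraries (adjusted p = 1.2e-04) and 2.19 without the shallow libraries (adjusted p = 7.9e-05). WNT5A, the main ligand of the beta-catenin-independent branches, was 270, 124, 283, 702 and 643 against 58.1 to 198 (log2 fold change 1.63, adjusted p = 0.0012). WNT5A, WNT6 (1.70) and WNT9A (1.70) overlapped with liver, in WNT9A only through shallow library S22 (261; pBTSCs from 234 to 367 and the deep liver libraries up to 145).

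WNT2B, WNT3, WNT7A and WNT7B were not called. WNT7B measured 52.1 to 193 in pBTSCs and 17.3 to 260 in liver, and WNT2B 145 to 502 and 52.2 to 335. The ligands thus lay on both sides of the liver levels.

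Of the receptors, FZD10, FZD2, FZD7, FZD9 and FZD6 were called higher in pBTSCs and FZD5 lower. FZD10, a receptor of Wnt ligands, measured 230, 258, 226, 176 and 157 normalized counts in pBTSCs and 0 to 32.4 (median 11.9) in liver. The lowest pBTSC library was far above the highest liver library, and the log2 fold change was 4.51 ± 0.64 (22.8-fold, adjusted p = 1.8e-05).

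FZD2 measured 222 to 313 in pBTSCs against 33.4 to 88.7 in liver, 4.35-fold higher with no overlap (adjusted p = 9.6e-08). FZD7, a receptor much studied in stem cells, was 1473, 1705, 1468, 1369 and 1386 in pBTSCs against a lowest of 198, a median of 736 and a highest of 1051 in liver. It too did not overlap, with a log2 fold change of 1.35 ± 0.17 (adjusted p = 4.6e-06).

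FZD6 measured 1183, 1306, 1740, 2174 and 2265 in pBTSCs and 247 to 1641 (median 851) in liver, so that the groups overlapped; its log2 fold change was 1.09 (adjusted p = 0.00297) and 0.89 without the shallow libraries. FZD9 was 9.11 to 28.9 against 0 to 15.2 (log2 fold change 1.93, and 1.37 without the shallow libraries). FZD5, a receptor with known roles in gut epithelium, went the other way: it was 466, 305, 290, 352 and 296 in pBTSCs and 516 to 1925 (median 1297) in liver, 3.57-fold lower with no overlap (adjusted p = 7.8e-06).

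The coreceptor LRP6 measured 1430, 1570, 1603, 1643 and 1547 in pBTSCs and 470 to 1244 (median 827) in liver. The groups did not overlap, and its difference (log2 fold change 0.98 ± 0.18, adjusted p = 1.9e-04) was just under the 2-fold threshold. LRP5, FZD1, FZD3, FZD4 and FZD8 were not called, with log2 fold changes from -0.52 (FZD8) to 0.50 (FZD1). FZD4, for example, was 3103 to 5708 in pBTSCs and 2087 to 4014 in liver.

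In the R-spondin axis the ligands differed in opposite directions. RSPO3, which endothelium of the central vein is known to supply, measured 79.3, 112, 118, 313 and 94.3 in pBTSCs and 182 to 649 (median 351) in liver. Only the shallow library S15 reached into the liver range, and RSPO3 was lower in pBTSCs (log2 fold change -1.58, adjusted p = 5.8e-04). RSPO1 was called higher (log2 fold change 1.77, adjusted p = 0.011) at low levels of 8.52 to 31.6 against 0 to 12.3, and its log2 fold change was 1.22 without the shallow libraries.

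LGR5, a receptor of R-spondins and a marker of several adult stem cells, measured 684, 435, 414, 291 and 346 in pBTSCs. In liver it ran from 63.4 through a median of 363 to 552, so that it overlapped widely, and it was not called (log2 fold change 0.56 ± 0.25, adjusted p = 0.0756). LGR4 was not called either (1167 to 2148 against 1112 to 3609, log2 fold change -0.58).

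The ubiquitin ligases did not pass the test. RNF43 measured 373, 266, 227, 176 and 91.5 in pBTSCs and 111 to 417 (median 204) in liver, with a log2 fold change of -0.15 ± 0.30 (adjusted p = 0.696). ZNRF3 measured 619, 715, 516, 500 and 312 against 176 to 591 (median 403), with 0.41 ± 0.25 (adjusted p = 0.195).

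The secreted antagonists held the largest differences in either direction. SFRP2, which binds Wnt ligands and is made by stromal cells in many tissues, measured 447, 1292, 1718, 1156 and 918 normalized counts in pBTSCs and 0 to 61.8 (median 33.9) in liver. No library overlapped, and SFRP2 was 41.2-fold higher (log2 fold change 5.36 ± 0.61, adjusted p = 1.6e-06). Without the 3 shallow libraries the log2 fold change was 4.74.

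SFRP4 measured 459, 671, 1221, 1068 and 231 in pBTSCs and 15.7 to 72.1 (median 49.6) in liver (log2 fold change 3.81 ± 0.36, adjusted p = 1.8e-07). DKK3, a dickkopf-family protein whose part in Wnt signalling is less clear than that of its relatives, measured 987, 697, 1120, 1721 and 1989 against 99.5 to 265 (median 180). Both genes were above all liver libraries in every pBTSC library, and DKK3 was 7.10-fold higher (log2 fold change 2.83 ± 0.21, adjusted p = 1.1e-08).

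WIF1, which binds Wnt ligands outside the cell, varied most among the pBTSC libraries, at 315, 841, 3071, 980 and 130 normalized counts. It was 0 to 253 (median 52.2) in liver, so that S20 lay within the liver range (log2 fold change 3.42 ± 0.93, adjusted p = 0.00595, and 2.75 without the shallow libraries). DKK2, a ligand of LRP6, was called higher with overlap (259 to 708 against 25.7 to 306, log2 fold change 2.30), as was SFRP1 (966 to 3474 against 246 to 1419, log2 fold change 1.55). DKK1, the classic LRP6 inhibitor, was 6.46 to 12.6 against 0 to 52.2, and in the deep libraries 6.46 to 9.56 against 0.56 to 15.6. The highest liver value was 1 read in shallow library S22. SFRP5 was 821 to 1799 against 472 to 3307, and neither gene was called.

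NOTUM, an enzyme that inactivates Wnt proteins by taking off their lipid and is itself a Wnt target, was the antagonist called lower. It measured 7.71, 6.72, 11.5, 25.1 and 19.2 in pBTSCs, where the value of S15 stands for fewer than 3 reads. In liver it ran from 197 through a median of 454 to 585 in sorts of every kind. The groups stood far apart, and NOTUM was 31.6-fold lower in pBTSCs (log2 fold change -4.98 ± 0.30, adjusted p = 1.0e-09).

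Within the relay, LEF1 and AXIN2 were called higher. LEF1, a nuclear partner of beta-catenin that is also a target of the pathway and is made by lymphocytes, measured 694, 434, 524, 543 and 394 in pBTSCs. In liver it was 0 to 100 (median 47.7), with its 0 in shallow library S22, and the deep liver libraries began at 18. The groups did not overlap, and the log2 fold change was 4.13 ± 0.53 (17.5-fold, adjusted p = 6.0e-06), or 3.66 without the shallow libraries. The leukocyte markers did not move one way: 5 of 8 were called lower in pBTSCs and 1, the T cell gene CD3E, higher (81.2 against 29.4 mean normalized counts). Those called lower were C1QA, CSF1R, MARCO, CD68 and CD163, and PTPRC was not called. The B cell gene CD79A was 368 against 203 (log2 fold change 0.95, adjusted p = 0.001), under the fold threshold. The part of lymphocytes in the LEF1 difference was not tested.

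AXIN2, the scaffold of the destruction complex that is widely read as a measure of beta-catenin activity, measured 636, 646, 639, 586 and 462 in pBTSCs. In liver it ran from 177 through a median of 260 to 529, and that highest value was shallow library S22: the deep liver libraries ended at 325. The log2 fold change was 1.10 ± 0.16 (adjusted p = 3.1e-05), close to the 2-fold threshold, and it was 0.98 and not called when libraries were rescaled by trimmed means. Thus AXIN2 and LEF1 were higher and NOTUM lower in the same libraries, while LGR5, RNF43, ZNRF3 and TCF7, other genes known as targets or partners of the pathway, were not called.

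TCF7 measured 234, 183, 255, 290 and 412 in pBTSCs and 129 to 337 (median 164) in liver (log2 fold change 0.46 ± 0.17, adjusted p = 0.0405, under the fold threshold). CTNNB1, which encodes beta-catenin itself, was 11657, 9985, 10401, 12551 and 11825 against 5710 to 11664 (median 10014), with a log2 fold change of 0.26 ± 0.11 (adjusted p = 0.05). Neither separated the groups. AXIN1, TCF7L1 and TCF7L2 had log2 fold changes of 0.43, 0.63 and -0.34 and were not called.

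**Figure D3:**
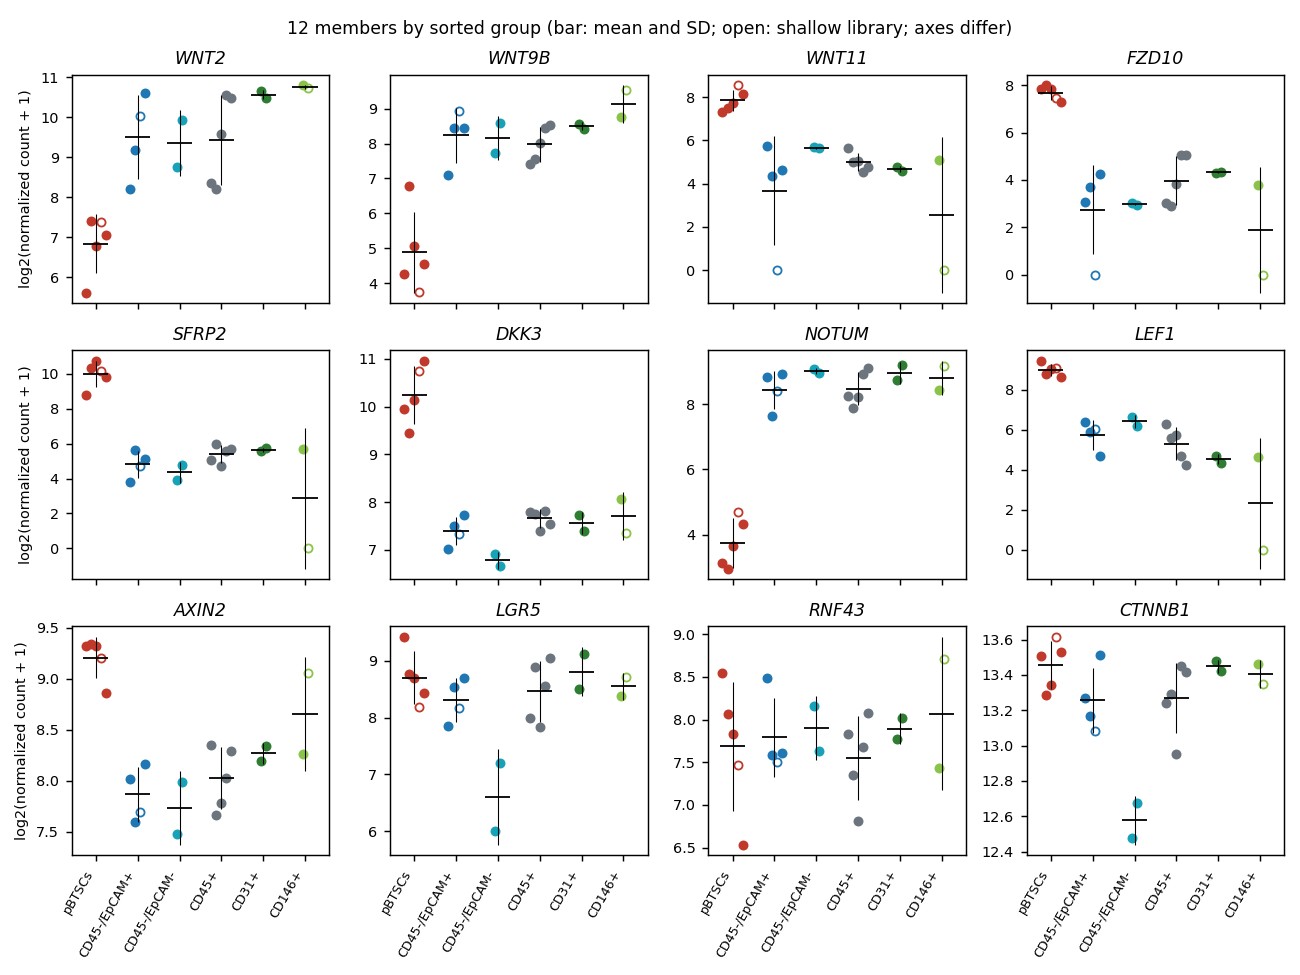
Level of 12 members in every library as log2(normalized count + 1) on axes that differ between panels, by sorted group, with the mean and SD of each group; open points are the shallow libraries. WNT2, WNT9B and NOTUM lie lower and WNT11, FZD10, SFRP2, DKK3 and LEF1 higher in all 5 pBTSC libraries than in any liver library, while LGR5, RNF43 and CTNNB1 overlap.

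Against single liver sorts, which all share the pBTSC libraries, the calls were as follows. Against CD45-/EpCAM+ cells 26 of 46 members were called, 21 higher and 5 lower, where 25.1% of all genes were called (14.8% higher, 10.3% lower). No overlap was seen in 16 members that were higher (19.2% of all genes) and 6 that were lower (14.1%). Against CD45-/EpCAM- cells also 26 were called, 21 higher and 5 lower, where the share was 36.6% (16.6% lower), with no overlap in 25 that were higher (33.6%) and 7 that were lower (30.0%). Against CD45+ cells 23 were called (17 higher, 6 lower), where 20.6% of all genes were (9.54% lower). Against CD31+ cells 14 were called (8 and 6), with 14.4% of all genes (6.73% and 7.62%), and against CD146+ cells 15 (11 and 4), with 22.2% (14.5% and 7.75%). S22 is 1 of the 2 CD146+ libraries, and without the 3 shallow libraries 14 members (9 and 5) and 10.1% of all genes were called against CD146+ cells. With 1 library of the CD31+ pair left out the count fell to 9 without S16 and 8 without S21.

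NOTUM, WNT2, WNT9B and FZD5 were called lower, and SFRP2, SFRP4, DKK3, LEF1, FZD10 and FZD2 higher, against each of the 5 sorts. NOTUM had log2 fold changes of -4.69 against CD45-/EpCAM+, -5.26 against CD45-/EpCAM-, -4.72 against CD45+, -5.21 against CD31+ and -5.04 against CD146+ cells. AXIN2 was called against the CD45-/EpCAM+ (1.34), CD45-/EpCAM- (1.48) and CD45+ (1.19) sorts and not against the CD31+ (0.94) or CD146+ (0.55) sorts. In the CD146+ sort AXIN2 was 529 in shallow library S22 and 305 in S17, and in the CD31+ sort 292 and 323 in S16 and S21. Both sorts lie only in S16 to S23, and AXIN2 was not called against liver in S15 to S23 alone. LGR5 was called only against CD45-/EpCAM- cells (2.10, adjusted p = 3.7e-04), and not against CD45-/EpCAM+ (0.39), CD45+ (0.24), CD31+ (-0.11) or CD146+ cells (0.16).

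A 2-sided exact permutation test of pBTSCs (n = 5) against CD45-/EpCAM+ cells (n = 4) was run on the 22 members given library by library. Of these, 10 were chosen for large called differences with no overlap with any liver library, which fixes their p at 0.0159, the smallest these numbers allow, so that their p adds nothing. Of the other 12 members 6 had an exact permutation p under 0.05, namely AXIN2, TCF7, FZD7, DKK1, FZD6 and LRP6. FZD7 and LRP6 also overlapped with no liver library, so that their p was fixed in the same way. FZD7, DKK1 and FZD6 were in the set because they were called in comparisons inside these same liver libraries. Without the shallow libraries (4 against 3) the exact test cannot go below p = 0.0571.

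Inside the liver few members passed the test between sorts. Between CD45-/EpCAM+ and CD45+ cells limma called 0 of 46 members and 0% of all genes. At an unadjusted p under 0.05 there were 1 member and 214 of the 15576 genes tested. Between the CD31+ and CD146+ sorts on the one side and the CD45+ and CD45-/EpCAM+ sorts on the other it also called 0 (0% of all genes). Here 9 members and 2855 of the 15576 genes tested had an unadjusted p under 0.05. The lowest adjusted p there was 0.253, for DKK1 (log2 fold change 2.45) and LEF1 (-2.11). DKK1 in shallow CD146+ library S22, 52.2, was 1 read, and it was 11.3 in S17. Both endothelial sorts lie in S16 to S23 only. In that range DKK1 was 13.7, 7.53 and 13.5 in S18, S19 and S23 of the other sorts, and 15.6 and 15.2 in CD31+ S16 and S21. LEF1 was 24.3, 24.8 and 18 in S18, S19 and S23, and 25 and 19.4 in S16 and S21. Leaving out CD146+ library S17 leaves that sort with its shallow library alone, so no count is given for that fit.

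Between CD45-/EpCAM+ and CD45-/EpCAM- cells 4 of 46 members were called, all higher in CD45-/EpCAM+ cells, where 2.80% of all genes were called (2.03% higher, 0.770% lower). LGR5 measured 229, 369, 285 and 416 in the CD45-/EpCAM+ libraries S4, S9, S13 and S19 and 63.4 and 146 in the CD45-/EpCAM- libraries S5 and S14 (log2 fold change 1.71 ± 0.41, adjusted p = 0.0359). WNT7B (1.98, adjusted p = 0.0403), FZD7 (1.31, adjusted p = 0.0249) and SFRP5 (1.30, adjusted p = 0.0424) were the others. None of the 4 overlapped between these sorts. With so few libraries that was common, since 14 of 46 members were higher without overlap and 4 lower. The share of all genes without overlap was not taken for these sorts.

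This count was 0 without CD45-/EpCAM+ library S19 or CD45-/EpCAM- library S5, with array weights, and when these 2 sorts alone were fitted. It was 1 without pBTSC library S11 and 2 without S4 (CD45-/EpCAM+), S3 (CD45+), S16 or S21 (CD31+). The summed level of 4 erythroid markers was 187339 to 862043 in the CD45-/EpCAM- libraries and 2415 to 42418 in the CD45-/EpCAM+ libraries, and 3 of the 4 were called lower in the latter. In the same comparison 2 of 10 fibroblast markers (median log2 fold change 0.92), 1 of 6 smooth muscle markers (1.09) and 1 of 8 biliary markers (0.78) were called higher in CD45-/EpCAM+ cells. The part of these cell types in the result was not tested.

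Liver libraries with neighbouring storage numbers were more alike than libraries of the same sort, in the members no more often than over all genes. Storage numbers are taken here in runs that start at each pBTSC library (S2 to S5, S7 to S9, S11 to S14, S15 to S19 and S20 to S23), and the labels do not say what a run is. Over the 13 deep liver libraries the median SD of the members was 0.34 within runs and 0.48 within sorts on the log2 scale, and 33 of 46 members (71.7%) had the smaller SD within runs, where 77.7% of all genes did. WIF1 is an example, at 253, 248, 245 and 221 in S16 (CD31+), S17 (CD146+), S18 (CD45+) and S19 (CD45-/EpCAM+).

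With the sort as a term, liver libraries S16 to S23 differed from S3 to S14 in 3 of 46 members, all higher in S16 to S23, where 3.49% of all genes were called (2.12% higher). WNT2 was 1425 to 1771 in S16 to S23 and 294 to 1043 in S3 to S14 (log2 difference 1.68 ± 0.40, adjusted p = 0.0316). FZD6 (1.13, adjusted p = 0.0156) and DKK1 (2.34, adjusted p = 0.0416) were the others. LRP6 was higher by 0.73 (adjusted p = 0.0379), under the fold threshold.

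The count was 0 without CD45-/EpCAM+ library S19 or CD45+ library S18 and 1 without any of S3, S8, S23, S16 and S21. It was 6 without the shallow libraries, where 7.25% of all genes were called. Since CD31+ and CD146+ libraries all lie in S16 to S23 and CD45-/EpCAM- libraries in S3 to S14, only the CD45+ and CD45-/EpCAM+ sorts have libraries in both ranges. In the same fit 3 of 4 erythroid markers were called lower in S16 to S23, and their part was not tested.

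**Figure D4:**
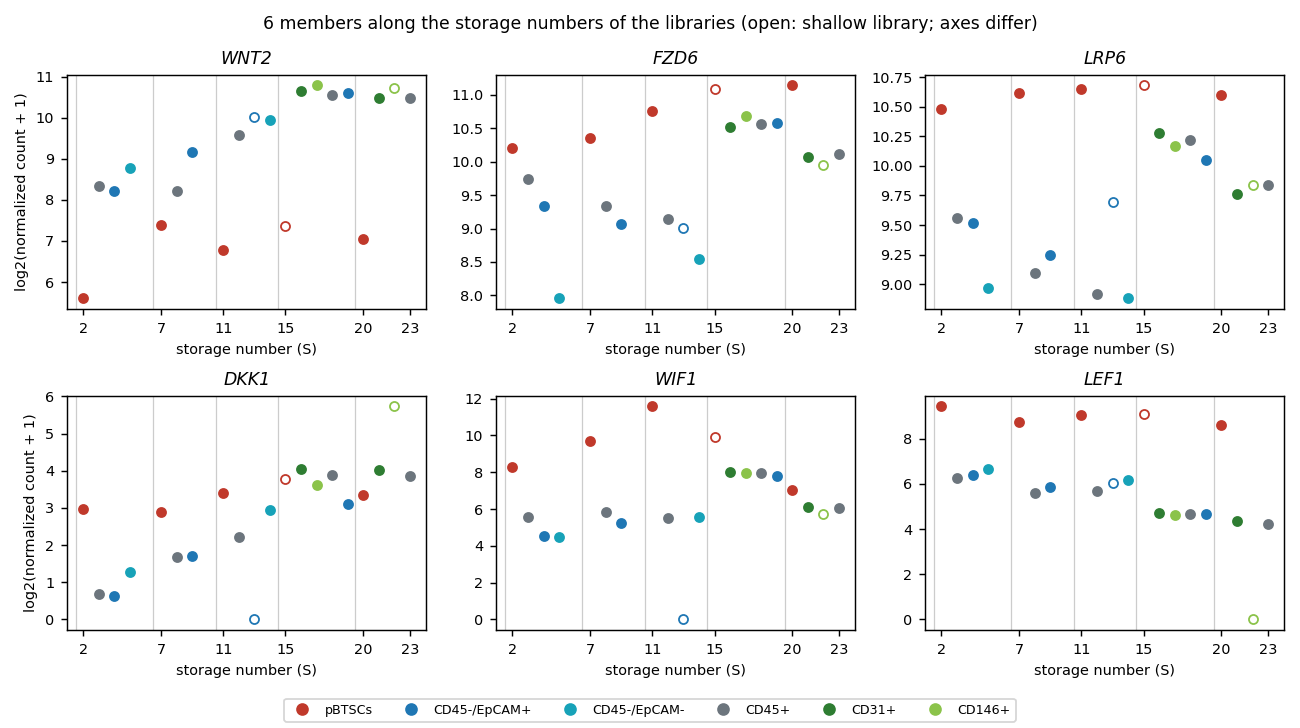
Level of 6 members as log2(normalized count + 1), on axes that differ between panels, against the storage number of each library, colored by group; grey lines mark the start of each run and open points are shallow libraries. Liver WNT2, FZD6 and LRP6 lie higher from S16 on and liver LEF1 lower, with liver sorts of 1 run close together, while the 5 pBTSC libraries of LEF1 and WNT2 keep apart from liver.

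The ranges of storage number also separate the piglet lines, since S2, S7 and S11 were H2B-GFP and S15 and S20 wild-type, so that line and storage range cannot be told apart. The study also reports lower RNA integrity for S2, S7 and S11 than for S20, with no value for S15. The part of RNA integrity was not tested. Fitted to S2 to S14 alone, 28 members were called between pBTSCs and liver, where 30.9% of all genes were: 23 of the 25 above, without RSPO1 and WNT8B, and with DKK1, LGR5, LRP6, TCF7L1 and WNT7A in addition. Fitted to S15 to S23 alone, with 2 pBTSC libraries, 17 were called, where 15.4% of all genes were, and 15 of them were among the 25. AXIN2 (0.72, adjusted p = 0.0792), FZD6, FZD7, FZD9, RSPO1, RSPO3, WIF1, WNT6, WNT8B and WNT9A were not called there, and FZD8 and LGR4 were. LGR5 had a log2 fold change of 1.29 in S2 to S14 and -0.40 in S15 to S23. Liver was the mean of the sorts present in each range, so the reference differed between these fits. CD45-/EpCAM- cells, with LGR5 at 63.4 and 146, were in S2 to S14 only, and CD31+ and CD146+ cells in S15 to S23 only. The difference between the ranges itself was tested with CD45-/EpCAM+ and CD45+ cells as the only liver sorts. It passed for 0 of 46 members, where 1.40% of all genes passed. At an unadjusted p under 0.05 there were 12 members, and the share of all genes at that level was not taken. For LGR5 the difference was -1.20 ± 0.42 (adjusted p = 0.194).

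Between H2B-GFP and wild-type piglets, with the 5 pBTSC libraries fitted alone, 0 of 43 members tested were called, where 1.77% of all genes were called. An unadjusted p under 0.05 was found for 15 members and for 2759 of the 14912 genes tested in this fit. In 11 members the 3 H2B-GFP libraries were all above both wild-type libraries and in 10 all below, where the shares among all genes were 18.1% and 19.8%. The lowest adjusted p values were those of DKK3 (log2 difference of H2B-GFP from wild-type -1.01, adjusted p = 0.084) and WNT5A (-1.66, adjusted p = 0.0935). Without H2B-GFP library S7, 1 member was called, and the share of all genes called in that fit is not given here. RNF43 was 373, 266 and 227 in the H2B-GFP libraries and 176 and 91.5 in the wild-type libraries (1.15, adjusted p = 0.172). In the same fit 7 of 10 hepatocyte markers were called lower in H2B-GFP libraries and 1 of 10 fibroblast markers, with a median log2 difference of -1.66 over the fibroblast list, and their part was not tested.

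Other genes of the pathway were taken from lists by function, of which 68 of 73 genes had a row. Among 10 tested genes of ligand secretion and coreceptors, 3 were called higher and 1 lower in pBTSCs against liver, where 26.6% of all genes were called (16.1% higher, 10.5% lower). Counts of this size lie near that share, and those of these lists are given as a description. PTK7 (log2 fold change 2.44 ± 0.15, adjusted p = 1.0e-09) and ROR2 (1.72 ± 0.20, adjusted p = 2.1e-06), both coreceptors of the beta-catenin-independent branches, were the largest, and GPC3, a heparan sulfate proteoglycan of fetal liver, was the gene called lower (-1.89 ± 0.31). WLS and PORCN, which every Wnt ligand needs for its secretion, were not called.

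Of 7 other secreted antagonists 5 were called higher and 0 lower. SOSTDC1 had a log2 fold change of 3.74 and SOST 3.47, both LRP-binding proteins, at mean levels of 48.6 and 50.5 normalized counts in pBTSCs against 4.14 and 4.68 in liver. In the planar polarity branch 3 of 10 were called higher, with CELSR3 (2.24), an atypical cadherin, and DAAM2 (1.71), a formin, the largest, and 0 lower.

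Of 12 genes of the cytoplasmic relay 2 were called higher, APC2 (2.16) and AMER1 (1.07), both of which bind partners in the destruction complex, and 0 lower. Of 9 nuclear cofactors 1 was called, PYGO1 (1.30), which helps beta-catenin to activate transcription.

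Of 10 other transcriptional targets 3 were called higher and 0 lower, with EPHB2, an ephrin receptor of gut crypts, at 4.21 ± 0.73 (mean 742 against 57.6 normalized counts) and NKD1, a feedback inhibitor of Dishevelled, at 1.97 ± 0.25 the largest. Of 7 liver pericentral genes 4 were called lower and 0 higher. CYP2E1 (-8.47 ± 1.10) and CYP1A2 (-6.49 ± 1.07), cytochromes of hepatocytes near the central vein, were the largest, in libraries where all 10 hepatocyte markers were lower too. GLUL, glutamine synthetase, had a log2 fold change of -0.57 and was not called.

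**Figure D5:**
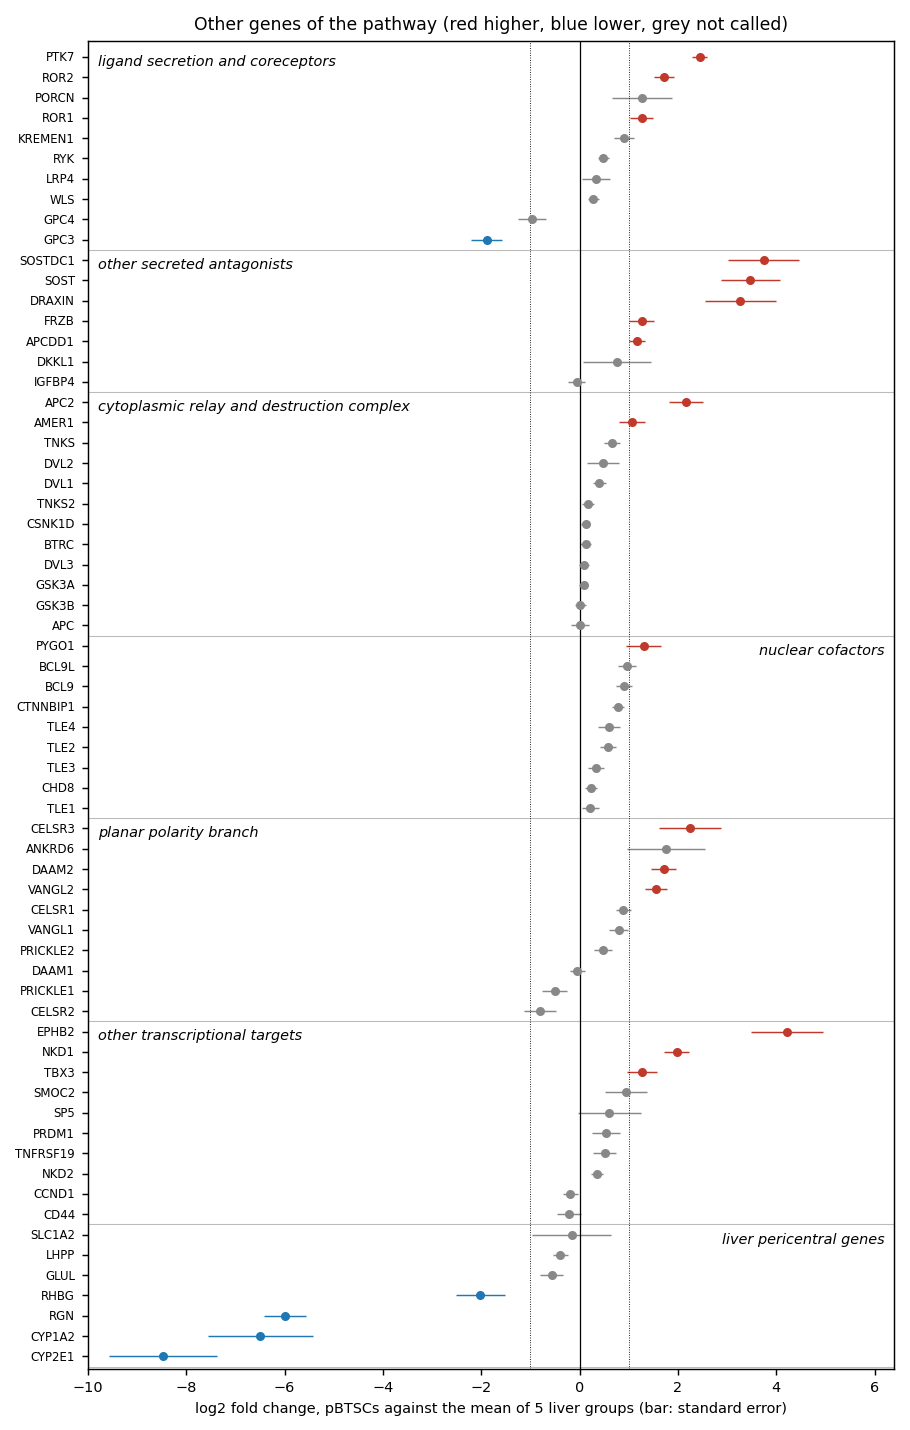
Log2 fold change of the other pathway genes tested, pBTSCs against the mean of 5 liver groups, with standard errors, in blocks by function; red genes were called higher, blue lower and grey not called. The 5 red points among the 7 other antagonists and the 4 blue points among the 7 pericentral genes stand out, and the relay genes lie near 0 apart from APC2 and AMER1.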

How the data were processed

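RNA of 5 pBTSC and 15 sorted liver preparations was sequenced from poly(A) libraries (RNeasy, TruSeq Stranded mRNA). The values used are normalized counts per gene, of unit signal, in 1 table that the authors deposited. The submitters' processing notes name STAR, Salmon and DESeq2 without versions, and the genome build is not given in the sources used here, so no coordinates or sequences are printed. Groups came from the labels and the line of each pBTSC piglet from a table of the study. The members and lists were chosen with earlier results of these data known. The RefSeq genes of Sscrofa11.1 include all 53 names.

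Depth was estimated from the value of 1 read, since low values lie near whole multiples of it (within 0.05 reads for 60.4% to 84.3% of them); no test on counts was run. In R 4.3.3, limma 3.58.1 with trend was fitted to log2(normalized count + 1) of all 20 libraries and 6 groups, after a filter that kept 15576 genes (10 or more normalized counts in at least 2 libraries), with Benjamini-Hochberg adjustment over all of them. A call needed an adjusted p under 0.05 and a log2 fold change beyond 1 in either direction. A fold change on this scale understates that of low genes. Separate fits took the 5 pBTSC libraries and the 15 liver libraries. The fit was tested on simulated data. Exact permutation tests used scipy 1.17.1, pandas 2.3.3 and numpy 2.4.6 under Python 3.11.15, and figures matplotlib 3.10.9.

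Values in every library are given for the 10 members with the largest called differences and no overlap, for feedback genes (AXIN2, LGR5, RNF43, ZNRF3, NOTUM, LEF1 and TCF7), for members called inside the liver or between lines, and for CTNNB1 and LRP6. Of the other pathway genes the 2 largest called in each direction of a list are named; GLUL, WLS and PORCN, and values in every library of further members, were added after values were seen. Libraries of 1 group were compared with counting noise before averaging: the closest pair, pBTSC S15 and S20, differed by 1.68 times that noise. The alternatives were other scalings, pseudocounts, filters, weights, covariates and sets of libraries, and each library left out in turn; 4 of them, on runs and ranges of storage numbers, were chosen after seeing the data.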

Additional observations from a re-analysis of the deposited data

Results flagged for a closer look

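Values in which 1 library of a group stood apart were sought with Dixon's criterion in 66 groups of named members, where chance gives about 1 in 20, and 4 were found. In pBTSC library S7, WNT9B was 109 normalized counts (the other 4 from 12.6 to 32.4) and SFRP5 was 1799 (the other 4 from 821 to 1043). In CD45-/EpCAM+ liver library S4, RNF43 was 357 against 180 to 194 in the other 3. In CD45-/EpCAM+ liver library S19, FZD6 was 1533 against 514 to 646, and S19 is the only library of this sort with a storage number above S14.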

How the results depend on the processing

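With each library left out in turn, members called in pBTSCs against liver were 23 to 26 (18 to 21 higher, 5 to 6 lower), against CD45-/EpCAM+ cells 24 to 28 (19 to 23 higher, 5 lower), against CD45-/EpCAM- cells 21 to 28 (17 to 22 higher, 4 to 6 lower), against CD45+ cells 16 to 25, against CD31+ cells 8 to 16 and against CD146+ cells 11 to 18. Inside the liver the ranges were 0 for CD45-/EpCAM+ against CD45+ and 0 to 4 for CD45-/EpCAM+ against CD45-/EpCAM- (0 without S19). They were 0 to 4 for storage numbers (0 without S19 or S18) and 0 to 1 for the piglet lines (1 without S7). No range is given for the endothelial sorts, since leaving out S17 leaves 1 shallow CD146+ library. The share of all genes called in each of these fits is not given here, so the ranges do not set the members apart from all genes.

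With no fold threshold, 8 members were lower against CD45-/EpCAM+ cells, where 2573 of the 15576 genes tested were. By storage number, 6 members were called without the 3 shallow libraries (7.25% of all genes) and 9 with array weights (13.1%). The main fit called 3 (3.49%). Between CD45-/EpCAM+ and CD45-/EpCAM- cells the count was 0 with array weights (0.25% of all genes) and 0 with these sorts fitted alone (0%). It was 1 with runs as a term and no shallow library (1.71%). In S15 to S23 alone 11 members were higher against liver, 6 were called against CD45-/EpCAM+ cells (2 higher; 1 liver library) and 11 against CD45+ cells. Over all genes in this range, 1145 of the 15576 tested were higher against liver, and 12.2% were called against CD45+ cells. The count against CD45-/EpCAM+ cells rests on 1 liver library, so no conclusion is drawn from it. The exact permutation test without shallow libraries had p under 0.05 for 0 of 22 members, since it cannot.

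Among the members given under every alternative, those whose direction changed (RNF43, LGR5 and ZNRF3) were not called. RNF43 against liver was 0.17 with libraries rescaled to the same total, 0.01 without shallow libraries, 0.02 with array weights, -0.37 to 0.13 with 1 library left out (0.13 without pBTSC library S20) and 0.45 in S2 to S14. RNF43 against CD45-/EpCAM+ cells was 0.20 rescaled, 0.13 with array weights, -0.32 to 0.18 with 1 library left out (0.18 without S20, 0.12 without S4) and 0.29 in S2 to S14. In S15 to S23 alone LGR5 was -0.40 against liver and -0.39 against CD45-/EpCAM+ cells, and ZNRF3 -0.21 and -0.11. The cause was not tested. Rescaling to the same total moved the median of all genes from 0.11 to 0.43 and added LRP6 and WNT2B to the calls; no call was lost.

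Depth limits the low members: in S13 and S22 the limit that a count of 0 allows was 77.1 and 157 normalized counts. The labels carry no replicate numbers to use as a block. With the run of storage numbers as a term, chosen after seeing the data, 25 members were called against liver, 24 of them among those reported, with WNT8B lost and LRP6 gained.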
